A study of Mus musculus with 8 samples.

Results

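The axon guidance ligands and receptors were examined in subcutaneous C26 tumors with and without a disrupted IL-6 gene. Members were taken by gene symbol from the deposited table, which held 71 such genes among 27179, namely the semaphorins, plexins, neuropilins, ephrins, Eph receptors, Slits, Robos, netrins, the Unc5 receptors and Dcc. The question was how the levels of these genes differ between tumors grown from cxC26 scr cells and tumors grown from cxC26 IL-6 KO s1 cells. C26 is a mouse colon carcinoma line, and cxC26 is its cachectic form, which causes weight loss in its host. The cxC26 scr cells carried CRISPR/Cas9 with a scrambled guide RNA, whereas the IL-6 KO s1 cells, named KO s1 in what follows, carried guides against Il6 and were a single subclone, so features of that clone and of the IL-6 loss cannot be told apart. Both were implanted under the skin of adult male CD2F1 mice, 4 tumors per group were sequenced, and tumors were taken once the mouse had lost more than 15% of its body weight. In the study the KO s1 cells were injected in larger number and their tumors started to grow later, so tumor age and genotype cannot be told apart either. Each tumor was a bulk sample that includes host vessels, stroma and immune cells, and in such samples fewer cells of a type and less RNA per cell cannot be told apart.

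These families were first described in the growing nervous system, where a ligand on or from one cell attracts or repels the growth cone of an axon that carries its receptor. Secreted class 3 semaphorins bind neuropilins, which pair with plexins as the signalling chain, whereas most membrane-bound semaphorins bind plexins directly. Ephrins are held on the membrane and activate Eph receptor tyrosine kinases on a touching cell, Slits bind Robo receptors and glypicans, and netrins bind Dcc, neogenin and the Unc5 receptors. Outside the nervous system the same proteins act in blood vessel growth, in the movement of immune cells and in the adhesion and migration of carcinoma cells.

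The tumors had between 14158989 and 17048062 reads on genes. Il6, the targeted gene, gave 356, 326, 376 and 438 reads for the scr group and 64, 56, 86 and 59 for the KO s1 group, so it was lower in every tumor labelled as knockout. A count per gene does not separate host transcripts from disrupted ones. Of the epithelial markers, Krt20 was high in both groups, at 10.20 and 10.42 log2 CPM (the log2 of reads scaled to library size), whereas Krt19 had 0 or 1 read in each tumor and Epcam at most 14. Of the 3 epithelial markers tested, 2 rose, Krt18 by 3.20 on the log2 scale (adjusted p = 3.02e-06) and Cdh1 by 1.46 (adjusted p = 0.00251), both from a low level in the scr tumors, and Krt20 was not called. All 8 macrophage markers were higher in the KO s1 tumors, and none of the 10 endothelial markers passed the test. Of the 8 T cell markers, 2 passed the filter on low values in both groups (Lck and Cd4) and were higher, 4 (Cd3g, Cd2, Trac and Cd8a) passed it only through the KO s1 tumors and so had to differ, and 2 were not tested.

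Promoter sequences are shown for 4 members. Of the tested members Plxnb1 fell most and Sema4d rose most. Sema4c and Sema6b were, besides Sema4d, the tested members with a match to a searched motif. In the RefSeq windows of GRCm38.p6, which run from 250 bases before to 50 bases after an annotated start, 2 motifs were searched. TTCNNNGAA is the core bound by STAT factors that act downstream of IL-6 receptors. TGANTCA is the AP-1 core TGACTCA or TGAGTCA with any base allowed in the middle, so it also takes in TGAATCA, the Sema4d match. Both motifs read the same on either strand, and no member window held both. Each line gives the 250 bases before 1 annotated start, 5′ to 3′ on the strand of the gene, and capitals mark TGANTCA. All 4 stretches lie inside the span of their gene, so these starts are not the outermost ones.
Plxnb1, chr9:109095186-109095435, plus strand: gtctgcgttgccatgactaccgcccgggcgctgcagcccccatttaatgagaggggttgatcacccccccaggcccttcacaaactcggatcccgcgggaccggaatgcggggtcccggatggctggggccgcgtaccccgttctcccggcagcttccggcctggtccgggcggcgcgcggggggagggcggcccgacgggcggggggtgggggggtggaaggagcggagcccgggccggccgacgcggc
Sema4d, chr13:51748811-51749060, minus strand: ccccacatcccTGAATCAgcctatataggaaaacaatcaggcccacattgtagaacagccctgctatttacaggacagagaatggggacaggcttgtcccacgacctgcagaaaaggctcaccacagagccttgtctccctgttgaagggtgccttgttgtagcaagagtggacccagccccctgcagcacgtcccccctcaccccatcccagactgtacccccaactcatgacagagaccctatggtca
Sema4c, chr1:36558382-36558631, minus strand: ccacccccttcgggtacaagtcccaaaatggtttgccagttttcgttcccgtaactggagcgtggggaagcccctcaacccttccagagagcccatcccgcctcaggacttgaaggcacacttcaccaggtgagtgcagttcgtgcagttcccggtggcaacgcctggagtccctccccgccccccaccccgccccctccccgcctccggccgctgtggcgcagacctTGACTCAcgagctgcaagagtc
Sema6b, chr17:56133853-56134102, minus strand: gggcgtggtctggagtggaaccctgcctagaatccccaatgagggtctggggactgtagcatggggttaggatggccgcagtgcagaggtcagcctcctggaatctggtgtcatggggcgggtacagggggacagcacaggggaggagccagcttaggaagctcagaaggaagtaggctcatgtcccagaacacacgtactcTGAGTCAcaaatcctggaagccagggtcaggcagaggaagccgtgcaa
The Plxnb1 stretch held neither motif and was 75.2% G and C. Sema4d, with 3 windows, held TGAATCA from position -239 relative to the start in the window shown, Sema4c, with 2 windows, held TGACTCA from -22 in 1 of them, and Sema6b, also with 2, held TGAGTCA from -48 in 1 of them. These 3 genes behaved differently, since Sema4d was higher in the KO s1 tumors, Sema4c was lower and Sema6b did not pass the test (log2 fold change -0.02). Windows were given for 60 of the 71 members, 76 in number, and 3 of them (3.95%) held TGANTCA, compared with 7.81% of all 32851 promoter windows. Among tested members alone the share was 6.12% (3 of 49 windows), near the 5.46% over the windows of all tested genes. TTCNNNGAA stood in 3 of the 76 member windows, against 8.3% of all windows, and the 3 genes, Efna3, Epha3 and Sema3e, were too low to be tested. Its share over the windows of all tested genes was 6.84%. None of the 14 windows of members called higher and none of the 18 windows of those called lower held TTCNNNGAA. A match is a description of letters and not of a bound site, and a missing match says only that these letters are not in the window.

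A total of 44 members reached 1 CPM in 4 or more tumors and were tested, and each of them in fact reached it in all 8. With limma and Benjamini-Hochberg adjustment over 13262 tested genes, 9 members were called higher and 18 lower in KO s1 than in scr tumors (threshold 0.05), and 17 were not called. The 27 called members were 61.4% of those tested, beside 39.8% of all tested genes, of which 19.1% were higher and 20.7% lower. By at least 2-fold, 3 members rose and 11 fell, whereas 6.25% of all tested genes rose and 3.93% fell by as much. The median log2 fold change (KO s1 minus scr) was -0.25 over the tested members and -0.00289 over all tested genes. In 26 of the 44 the values of the 2 groups did not overlap, compared with 37.1% of all tested genes, and these 26 were the called members other than Sema4b. The p-values measure the spread between these tumors. Exons of 10 tested members (Efna4, Epha1, Ephb4, Nrp1, Plxna1, Plxna4, Plxnb1, Plxnc1, Sema4a and Sema4c) overlap another gene in GENCODE M21, the library kit does not keep the strand, and reads of the overlapping stretches cannot be told apart.

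**Figure D1:**
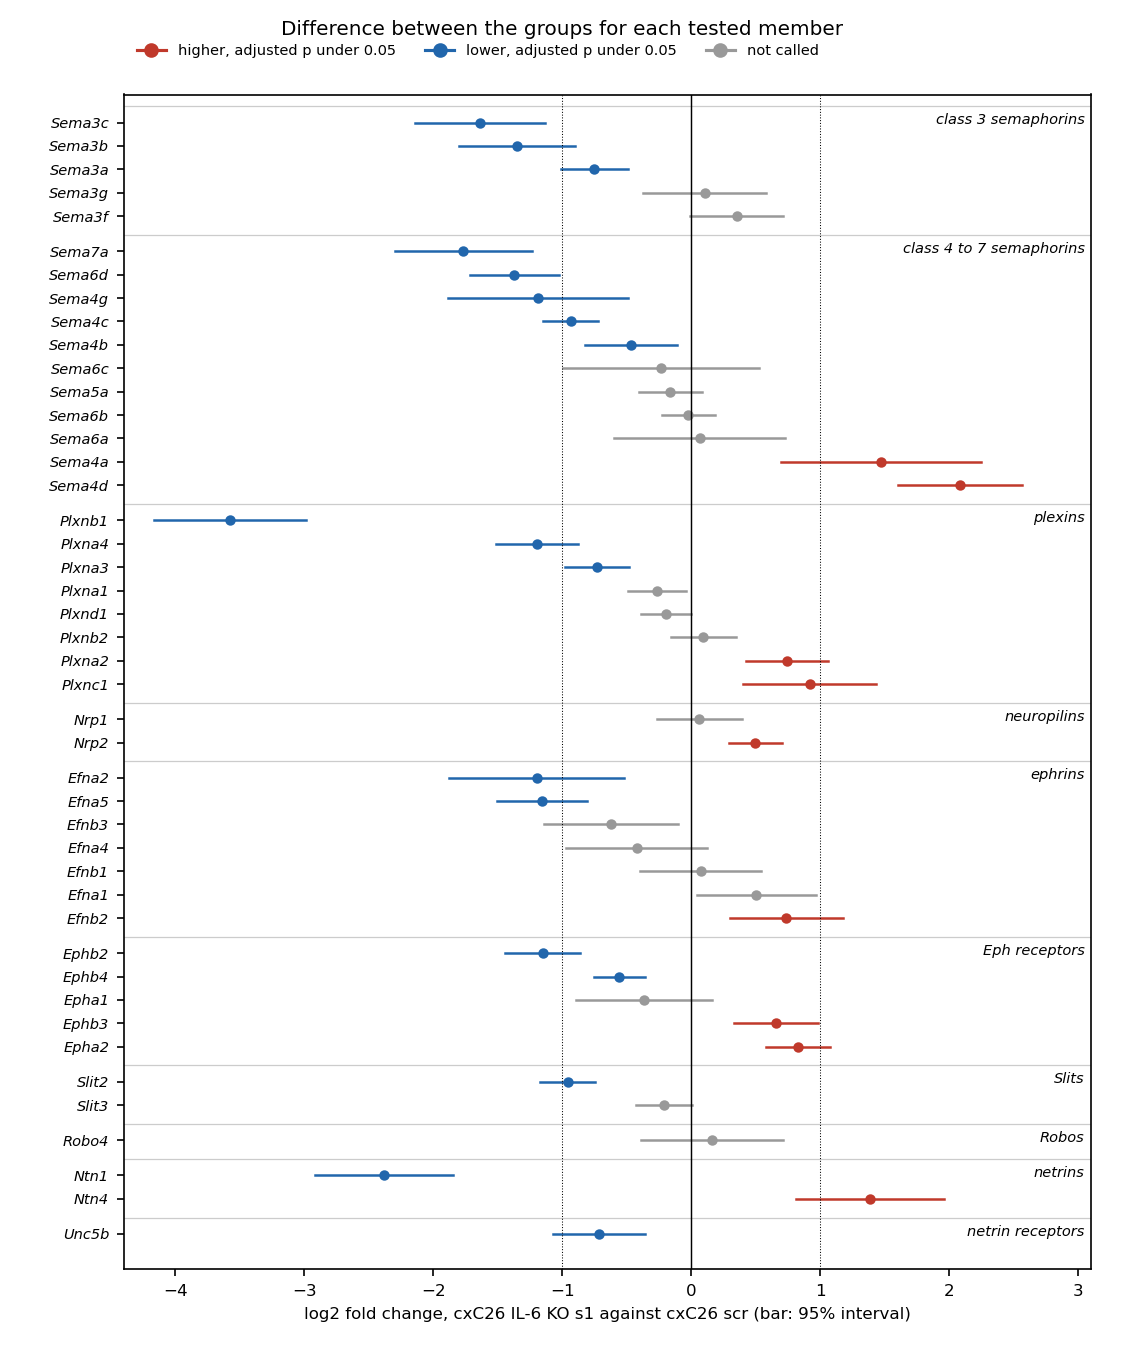
Log2 fold change (cxC26 IL-6 KO s1 minus cxC26 scr, horizontal axis) with its 95% confidence interval for the 44 tested members, grouped by family, 4 tumors per group. Called members are coloured by direction, with Plxnb1 (-3.58) and Ntn1 (-2.38) furthest to the left and Sema4d (2.08) furthest to the right.

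Compared per transcript length, as reads scaled to transcript length and library size (RPKM), the ligands dominated the set. Sema3a, Sema7a, Slit2 and Slit3 had group means of 153, 114, 110 and 103 RPKM in the cxC26 scr tumors, and the ranges of Sema7a, Slit2 and Slit3 overlapped one another. In the KO s1 tumors Sema3a and Slit3 had group means of 90.4 and 88.2 RPKM with overlapping ranges, followed by Plxnb2 with 68.6, Slit2 with 56.8, Epha2 with 42.1 and Sema7a with 34.5. Receptors were led by Plxnb2 in both groups (64.4 RPKM in scr), and Unc5b, Epha2, Plxna1, Nrp2, Nrp1 and Ephb4 followed in the scr tumors, between 20.1 and 30.7. The summed RPKM of all 71 members was 885 in the scr group and 644 in the KO s1 group. Most of that difference lay in the semaphorins and Slits, whose sums went from 161 to 98.1 for class 3 semaphorins, from 217 to 111 for classes 4 to 7 and from 213 to 145 for Slits, whereas neuropilins went from 45.7 to 56.5 and Eph receptors from 48.9 to 61.1.

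**Figure D2:**
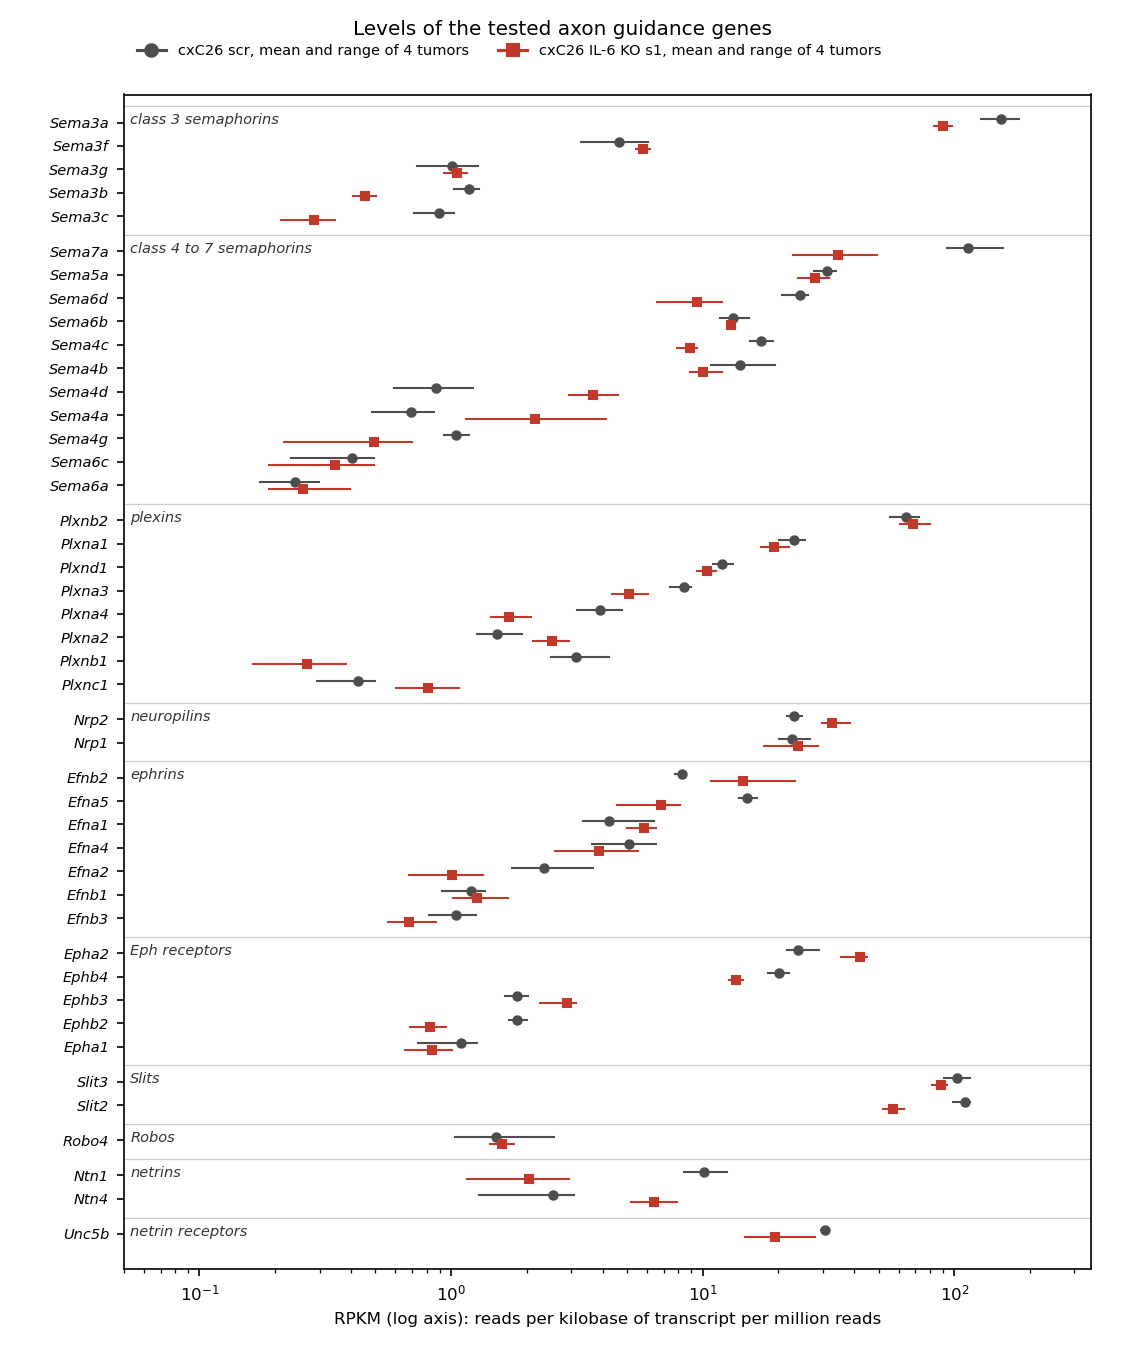
Levels of the 44 tested members in RPKM on a log axis, by family, with the mean (point) and range (line) of the 4 tumors of each group. Sema3a, Sema7a, Slit2 and Slit3 have group means above 100 RPKM in the scr tumors, and Plxnb1 shows the widest gap between the groups.

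Of the 7 class 3 semaphorins, the secreted ligands, 5 were tested, 3 were lower and none was higher. Sema3a, the classical repellent that collapses growth cones through neuropilin 1, lies on chromosome 5 (chr5:13124822-13603485, RefSeq, GRCm38.p6) and had the highest mean RPKM of all members in both groups, with a range that overlapped that of Sema7a in the scr tumors. Its values were 9.57, 9.67, 9.96 and 10.06 log2 CPM in the scr tumors and 9.18, 8.94, 9.03 and 9.09 in the KO s1 tumors. Every KO s1 tumor lay below every scr tumor, and the log2 fold change was -0.75 (SE 0.12, limma adjusted p = 0.000603), a 1.68-fold lower level. Sema3c, a ligand that binds both neuropilins and is known from heart outflow tract development, stood at 2.32, 1.97, 2.37 and 2.51 log2 CPM in the scr tumors and at 0.59, 0.25, 0.95 and 0.82 in the KO s1 tumors. No tumors of the groups overlapped, and the log2 fold change was -1.64 (SE 0.23, adjusted p = 0.000271). Sema3b, described as a tumor suppressor in lung, had 2.16, 2.04, 1.83 and 2.04 log2 CPM in scr and 0.81, 0.76, 0.51 and 0.57 in KO s1 tumors. It was thus low in both groups and lower in all KO s1 tumors, with a log2 fold change of -1.35 (SE 0.21, adjusted p = 0.000432). Sema3f, a neuropilin 2 ligand that lies close to it on chromosome 9, was not called (log2 fold change 0.35, adjusted p = 0.111), nor was Sema3g (0.10, adjusted p = 0.734).

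Of the 2 neuropilins, the co-receptors of these ligands, 1 was higher and 1 was not called. Nrp2 was at 7.39, 7.26, 7.24 and 7.19 log2 CPM in the scr tumors and at 8.01, 7.74, 7.64 and 7.67 in the KO s1 tumors, so the groups did not overlap. It rose by 0.50 on the log2 scale (SE 0.09, adjusted p = 0.00169), a 1.41-fold higher level. Nrp1, which also binds VEGF, had 22.7 and 23.9 RPKM in the groups, with a log2 fold change of 0.06 and a 95% confidence interval from -0.27 to 0.39. Hence the ligand Sema3a fell while neither neuropilin was called lower.

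The 13 semaphorins of classes 4 to 7 are mostly bound to the membrane, and 11 of them were tested, of which 2 were higher and 5 lower. Sema4d, also named CD100, is a ligand of plexin B1 and of CD72 and is found on T cells. The gene lies at chr13:51685529-51793678 and had 2.46, 1.90, 1.94 and 1.43 log2 CPM in the scr tumors and 4.37, 3.73, 4.04 and 3.93 in the KO s1 tumors. The nearest tumors of the groups lay 1.27 log2 units apart. The increase was the largest among the tested members (log2 fold change 2.08, SE 0.22, adjusted p = 3.94e-05, 4.24-fold). Sema4a, a costimulatory semaphorin of dendritic cells and T cells, stood at 1.17, 1.25, 1.47 and 0.67 log2 CPM in scr and at 3.72, 2.61, 2.22 and 1.88 in KO s1 tumors. The groups did not overlap, but the KO s1 tumors spread over 1.84 log2 units with tumor 1 highest. Sema4a rose by 1.47 (SE 0.35, adjusted p = 0.00661), and by 1.10 when KO s1 tumor 1 was left out (adjusted p = 0.00676).

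**Figure D3:**
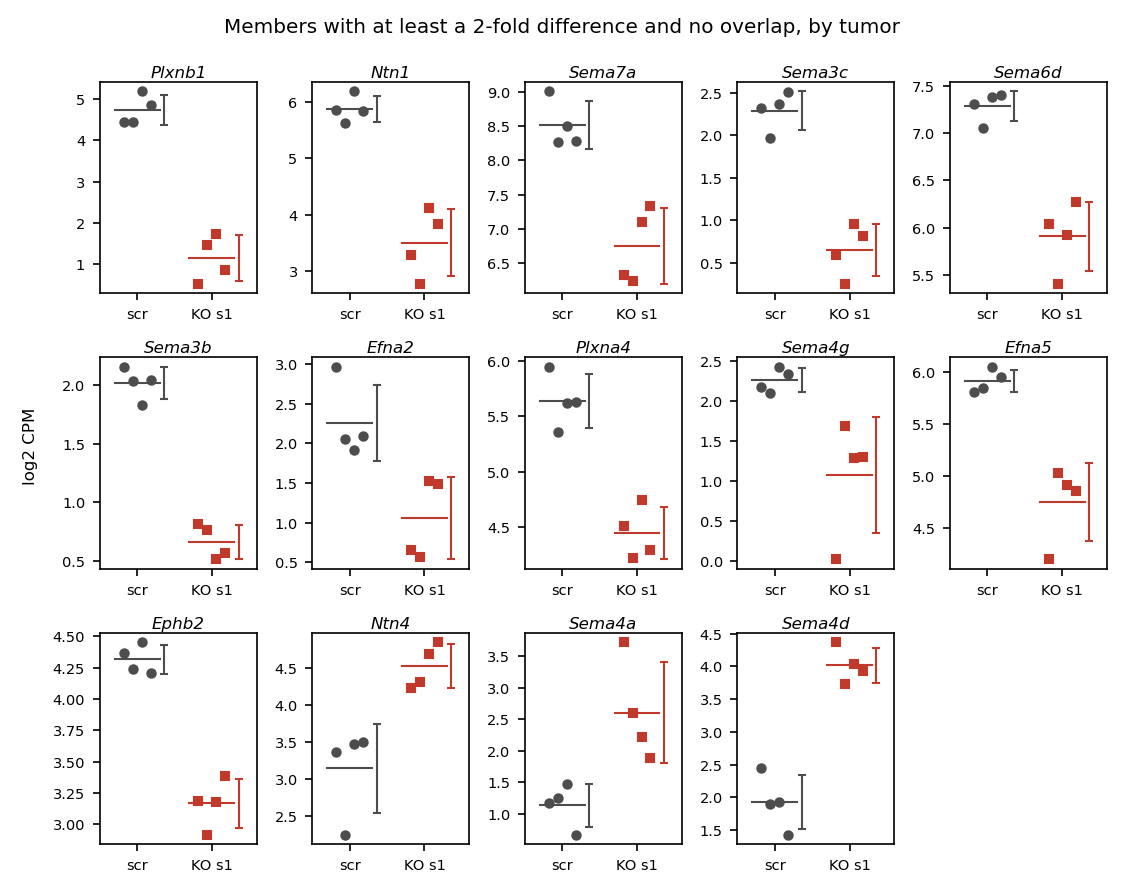
Log2 CPM of each tumor for the 14 members that passed the test, changed by at least 2-fold and did not overlap between groups, with the mean (line) and SD (bar) of the 4 tumors per group. The vertical scales differ between panels, and only Sema4d, Sema4a and Ntn4 lie higher in the KO s1 tumors.

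The 2 increases came together with a rise of immune markers. The summed level of the 8 macrophage markers was between 9.06 and 9.51 log2 CPM in the scr tumors and between 9.95 and 10.7 in the KO s1 tumors, and the T cell markers had 1.55 to 2.34 and 3.70 to 4.60. These sums cover the whole lists, and the part of such cells in the rise of Sema4d and Sema4a was not tested. Of the other binding partners, Cd72, an inhibitory receptor of B cells and myeloid cells, rose by 1.99 on the log2 scale (SE 0.27, adjusted p = 0.000208).

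Among the semaphorins of classes 4 to 7 that fell, Sema7a had the highest mean RPKM in both groups, a lipid-anchored ligand of plexin C1 and of integrin α1β1 that is also known from fibrosis. Its values, from chr9:57939596-57962865, were 9.01, 8.27, 8.51 and 8.28 log2 CPM in the scr tumors and 6.33, 6.23, 7.10 and 7.34 in the KO s1 tumors. The nearest tumors of the groups were 0.93 log2 units apart, and the level was 3.40-fold lower (log2 fold change -1.77, SE 0.24, adjusted p = 0.000232). Sema6d, a transmembrane ligand of plexin A1 and plexin A4, stood at 7.30, 7.05, 7.37 and 7.40 log2 CPM in scr and at 6.04, 5.41, 5.92 and 6.27 in KO s1 tumors. It fell by 1.37 on the log2 scale (SE 0.16, adjusted p = 7e-05), with the groups apart in all tumors. Sema4g, which binds plexin B2 in the developing cerebellum, was at 2.18, 2.10, 2.43 and 2.33 log2 CPM in scr tumors, and at 0.02, 1.68, 1.29 and 1.29 in KO s1 tumors, where tumor 1 was lowest. Its log2 fold change was -1.19 (SE 0.32, adjusted p = 0.0118) and was -0.84 without KO s1 tumor 1.

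Under 2-fold, Sema4c, a plexin B2 ligand, fell by 0.94 on the log2 scale (SE 0.10, adjusted p = 3.53e-05), and its groups did not overlap. Sema4b fell by 0.46 (SE 0.16, adjusted p = 0.0405), and it was the one called member whose groups overlapped, with 5.41 log2 CPM in the lowest scr and 5.55 in the highest KO s1 tumor. That call was lost when any of 6 of the 8 tumors was left out. The remaining 4, Sema5a, Sema6a, Sema6b and Sema6c, had log2 fold changes between -0.24 and 0.06 and were not called. Sema5a and Sema6b were well measured, at 31.2 and 13.2 RPKM in scr tumors, and their 95% confidence intervals ran from -0.41 to 0.08 and from -0.23 to 0.18.

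Plexins, the semaphorin receptors, had 10 members including the antisense transcript Plxna4os1, of which 8 were tested, 2 were higher and 3 lower. Plxnb1, the high-affinity receptor of Sema4d, which couples to RhoA and to the receptor tyrosine kinases Met and ErbB2, lies on chromosome 9 (chr9:109093849-109119915). Its values were 4.44, 4.44, 5.19 and 4.85 log2 CPM in the scr tumors and 0.53, 1.47, 1.74 and 0.87 in the KO s1 tumors. Between the highest KO s1 and the lowest scr tumor lay a gap of 2.70 log2 units, and the 11.9-fold lower level was the largest difference of any member (log2 fold change -3.58, SE 0.27, adjusted p = 3.78e-06). Per length, its mean went from 3.14 to 0.267 RPKM. Plxna4, a receptor that transmits Sema3a and Sema6 signals, had 5.95, 5.36, 5.62 and 5.63 log2 CPM in scr and 4.51, 4.22, 4.74 and 4.30 in KO s1 tumors. It fell in every KO s1 tumor, by 1.19 on the log2 scale (SE 0.15, adjusted p = 0.000107), and Plxna3, a neuropilin partner on the X chromosome, fell by 0.73 (SE 0.11, adjusted p = 0.000511).
The 2 plexins that rose did so by less than 2-fold. Plxnc1, the Sema7a receptor, which is found on myeloid cells, rose by 0.92 on the log2 scale (SE 0.24, adjusted p = 0.00935), and its level was low in both groups, at 0.428 and 0.813 RPKM. The macrophage markers rose as well, and the part of myeloid cells in the rise of Plxnc1 was not tested. Plxna2, a receptor of Sema6a and a neuropilin partner, rose by 0.74 (SE 0.15, adjusted p = 0.00205). Plxnb2, the plexin of highest RPKM and a receptor of Sema4c, Sema4d and Sema4g, was at 8.87, 8.49, 8.83 and 8.61 log2 CPM in scr tumors and at 9.03, 8.68, 8.63 and 8.82 in KO s1 tumors. The groups overlapped, and its log2 fold change was 0.09 (95% confidence interval -0.16 to 0.35, adjusted p = 0.558). Plxna1 and Plxnd1, receptors with roles in immune cells and in vessel patterning, had log2 fold changes of -0.27 (adjusted p = 0.0592) and -0.20 (adjusted p = 0.101) and were not called.

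Ephrins, the membrane-held ligands, had 8 members, of which 7 were tested, 1 was higher and 2 were lower. Efna5, a lipid-anchored repellent of retinal and cortical axons, had 5.81, 5.85, 6.05 and 5.95 log2 CPM in the scr tumors and 4.20, 5.03, 4.91 and 4.86 in the KO s1 tumors. The KO s1 tumors were all lower, tumor 1 most of all, and the log2 fold change was -1.16 (SE 0.16, adjusted p = 0.000227). Efna2, another lipid-anchored ephrin, stood at 2.97, 2.06, 1.91 and 2.09 log2 CPM in scr and at 0.65, 0.57, 1.53 and 1.48 in KO s1 tumors. It fell by 1.20 (SE 0.31, adjusted p = 0.00973), with scr tumor 1 far above the other scr tumors and still no overlap. Efnb2, a transmembrane ephrin that marks arterial endothelium, had 5.36, 5.22, 5.27 and 5.37 log2 CPM in scr and 5.69, 6.81, 5.76 and 5.91 in KO s1 tumors. All KO s1 tumors were higher, tumor 2 by most, and the rise of 0.74 on the log2 scale (SE 0.20, adjusted p = 0.0129) became 0.48 without KO s1 tumor 2 and remained called. None of the 10 endothelial markers was called beside it, and their summed level was 7.17 to 7.90 log2 CPM in scr and 7.33 to 7.68 in KO s1 tumors. That list is for endothelium in general and not for arteries, and the part of vessel cells in the rise of Efnb2 was not tested.

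The 4 ephrins that were not called were Efna1, the main ligand of EphA2, Efna4, Efnb1 and Efnb3, with log2 fold changes between -0.63 and 0.50 and adjusted p-values from 0.0547 to 0.817.

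Only 5 of the 14 Eph receptors were tested, and 2 rose and 2 fell. Epha2, the EphA receptor typical of epithelia and carcinomas, had 6.83, 6.40, 6.49 and 6.42 log2 CPM in the scr tumors and 7.44, 7.41, 7.12 and 7.46 in the KO s1 tumors. The groups were apart, and Epha2, the Eph receptor of highest RPKM, rose 1.77-fold from 23.8 to 42.1 RPKM (log2 fold change 0.82, SE 0.11, adjusted p = 0.000229). Of the 3 tested epithelial markers, Krt18 and Cdh1 rose and Krt20, the highest of them, was not called. The part of epithelial cells in the rise of Epha2 was not tested. Ephb2, a receptor that holds progenitors in the intestinal crypt, was at 4.36, 4.24, 4.45 and 4.21 log2 CPM in scr and at 3.18, 2.92, 3.18 and 3.39 in KO s1 tumors. No tumors overlapped, and Ephb2 fell by 1.15 on the log2 scale (SE 0.13, adjusted p = 7.5e-05). Ephb3, its close relative in the crypt, differed in the other direction and rose by 0.66 (SE 0.15, adjusted p = 0.00472). Ephb4, the venous partner of ephrin B2, fell by 0.56 (SE 0.09, adjusted p = 0.000619), while its ligand Efnb2 was higher in the same tumors. Epha1 was not called (log2 fold change -0.37, adjusted p = 0.246), and its exons overlap those of Zyx on the opposite strand.

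Slits, the secreted Robo ligands, were among the highest members per length. Slit2, a repellent of commissural axons and an inhibitor of leukocyte migration, is given in full beside Slit3 and was chosen for that after its values had been seen. Its values were 10.17, 9.94, 10.16 and 10.13 log2 CPM in the scr tumors and 9.02, 9.30, 9.11 and 9.14 in the KO s1 tumors. The tumors of each group ranged over 0.23 and 0.28 log2 units, the groups lay 0.64 apart, and Slit2 fell by 0.96 (SE 0.10, adjusted p = 3.01e-05), 1.94-fold. Slit3, known from diaphragm development, stood at 9.24, 8.89, 9.17 and 8.93 log2 CPM in scr and at 8.93, 8.85, 8.74 and 8.87 in KO s1 tumors. The groups overlapped, and it was not called (log2 fold change -0.21, adjusted p = 0.115, 95% confidence interval -0.43 to 0.01).

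Of the 4 Robo receptors only Robo4 could be tested, the family member restricted to endothelium. Robo4 had 3.66, 2.50, 2.72 and 2.37 log2 CPM in scr tumors and 2.93, 3.01, 3.15 and 2.82 in KO s1 tumors. Scr tumor 1 was the highest of all 8 and the other scr tumors were below the KO s1 tumors, and the difference was not called (0.16, SE 0.25, adjusted p = 0.634). Robo1 had 6 to 26 reads in each tumor, Robo2 at most 2 and Robo3 none. Per length, Slit2 and Slit3 thus stood at 110 and 103 RPKM in the scr group, whereas Robo4 reached at most 2.55 RPKM in any tumor. Gpc1, a glypican that binds Slits, was a further partner at 9.55 and 8.74 log2 CPM in scr and KO s1 tumors, and it fell by 0.81 (SE 0.15, adjusted p = 0.00154).

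Netrins gave 1 decrease and 1 increase. Ntn1, the founding netrin, which guides axons through Dcc and Unc5 and sustains cells that carry these receptors, lies at chr11:68209364-68386826. Its values were 5.86, 5.62, 6.20 and 5.84 log2 CPM in the scr tumors and 3.28, 2.77, 4.12 and 3.83 in the KO s1 tumors. The highest KO s1 tumor was 1.51 log2 units below the lowest scr tumor, and the level was 5.21-fold lower, the second largest decrease among the members (log2 fold change -2.38, SE 0.25, adjusted p = 3.39e-05). Ntn4, a laminin-binding netrin of basement membranes at chr10:93641049-93745972, had 3.36, 2.24, 3.47 and 3.49 log2 CPM in scr and 4.24, 4.32, 4.70 and 4.85 in KO s1 tumors. It rose by 1.39 (SE 0.26, adjusted p = 0.00161), and without scr tumor 2, the lowest, by 1.09. Per length, Ntn1 stood above Ntn4 in the scr tumors (10.1 and 2.55 RPKM) and below it in the KO s1 tumors (2.04 and 6.41 RPKM), and the ranges of the 2 genes did not overlap in either group.

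The netrin receptors were represented by Unc5b alone, since Dcc had 0 reads in 7 tumors and 4 in the last. Unc5b, a repulsive netrin receptor of tip cells in growing vessels, had 7.52, 7.43, 7.50 and 7.52 log2 CPM in the scr tumors and 7.36, 6.78, 6.44 and 6.53 in the KO s1 tumors. The scr tumors were nearly equal, the KO s1 tumors spread over 0.92 log2 units below them, and the log2 fold change was -0.72 (SE 0.16, adjusted p = 0.00498). Neo1, the netrin and RGM receptor neogenin, which is outside the symbol rule, was at 6.25 and 6.02 log2 CPM and fell by 0.23 (SE 0.08, adjusted p = 0.0377).

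Some ligands are set beside their partners here, chosen after their values had been seen. Sema4d and Cd72 rose while Plxnb1 fell and Plxnb2 was not called. Sema7a fell while Plxnc1 rose, Itga1 fell by 1.17 on the log2 scale (SE 0.26, adjusted p = 0.00421) and Itgb1 had a log2 fold change of -0.0043 (adjusted p = 0.978). Efnb2 rose while its receptors Ephb4 and Ephb2 fell and Ephb3 rose. Sema3a fell, and of the neuropilins and A-type plexins Plxna4 and Plxna3 fell, Nrp2 and Plxna2 rose, and Nrp1 and Plxna1 were not called. Ntn1 fell, as did Unc5b and Neo1, and Slit2 fell, as did Gpc1, whereas Robo4 was not called. All of these differences come from the same 8 tumors, and no link between a ligand and its receptor was tested.

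**Figure D4:**
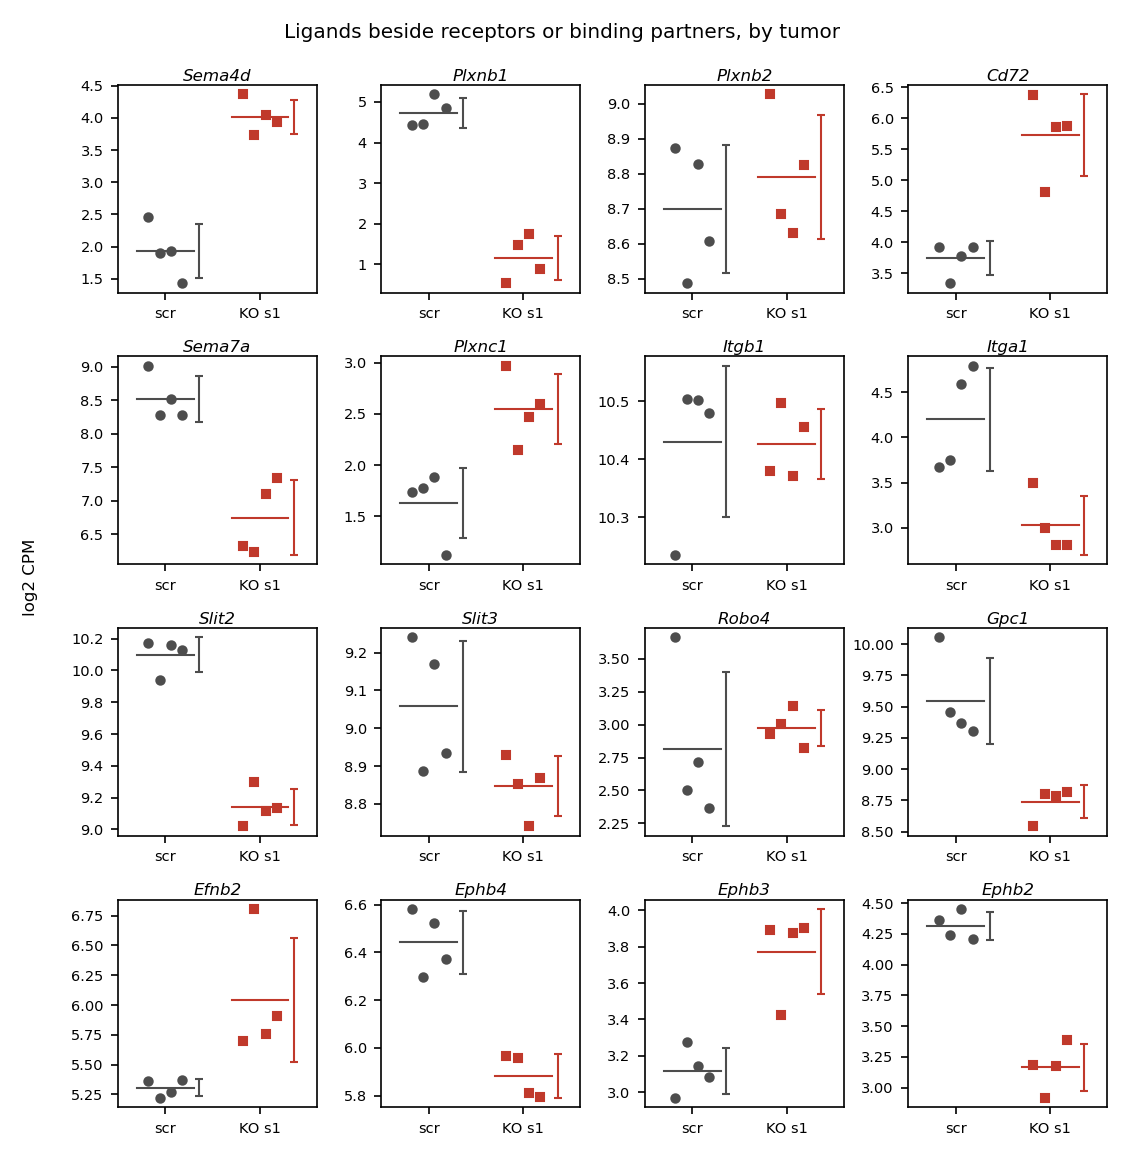
Log2 CPM of each tumor for ligands and receptors or binding partners, with the mean (line) and SD (bar) of the 4 tumors per group and a vertical scale of its own in each panel. In the top row Sema4d lies higher and Plxnb1 lower in the KO s1 tumors, and in the bottom row Efnb2 lies higher and Ephb4 lower.

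The 27 members not tested had at most 41 reads in any tumor. Epha6 and Robo3 had no reads in any tumor, and a count of 0 allows up to 3 reads. A further 15 had fewer than 10 reads in every tumor, namely Sema3d, Sema4f, Sema5b, Plxna4os1, Epha10, Epha5, Epha7, Epha8, Slit1, Robo2, Ntn5, Dcc, Unc5c, Unc5d and Unc5cl, the last of which shares its name with netrin receptors but is an intracellular protein. The other 10 were Sema3e, Plxnb3, Efna3, Epha3, Epha4, Ephb1, Ephb6, Robo1, Ntn3 and Unc5a, and 6 members not tested reached 1 CPM in some tumor. Ephb6, an Eph receptor without kinase activity that is found on T cells, had 3, 3, 5 and 2 reads in the scr tumors and 25, 9, 41 and 36 in the KO s1 tumors. The groups did not overlap, and in a fit without the filter its log2 fold change was 2.82 (SE 0.52, limma adjusted p = 0.00155). Unc5a, a netrin receptor of neurons, had 20, 20, 26 and 12 reads in scr and 1, 3, 6 and 10 in KO s1 tumors, with a log2 fold change of -2.10 in that fit (adjusted p = 0.0208). Both were thus apart between the groups at counts that the filter removed, and the exons of Unc5a overlap those of Hk3 on the opposite strand.

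Downstream of these receptors, 53 intracellular signalling genes were listed, of which 47 were tested, 10 were higher, 14 lower and the median log2 fold change was 0.02. Enah, an actin regulator that acts in the response to netrin and Slit, fell most, by 2.73 on the log2 scale (SE 0.22, adjusted p = 6.49e-06), from 5.18 to 2.46 log2 CPM. Chn1 and Vav3, which regulate Rac below Eph receptors, fell by 1.26 and 0.84, and the kinase Pak3 fell by 1.32. Tiam1, a Rac exchange factor, rose by 1.99 (SE 0.26, adjusted p = 0.000151), Srgap3, a Slit-Robo GTPase-activating protein, rose by 1.24, and Fyn, a kinase used by plexin A receptors, rose by 0.87. Tiam1 stood near the filter in the scr tumors, with 23, 20, 14 and 11 reads. The general GTPases Rac1 and Rhoa had log2 fold changes of 0.0023 and 0.02 and were not called. The called share, 24 of 47, stands beside 39.8% of all tested genes.

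A second list held 30 other guidance ligands and co-receptors, of which 23 were tested. Of these, 8 were higher and 9 lower (median log2 fold change 0.00218), whereas 19.1% of all tested genes were higher and 20.7% lower. L1cam, an adhesion molecule that forms a complex with Nrp1, rose by 2.63 on the log2 scale (SE 0.32, adjusted p = 9.75e-05) and had 10, 10, 8 and 5 reads in the scr tumors, so that it passed the filter only through the KO s1 tumors and had to differ. Nrcam, which acts with Nrp2, rose by 1.31 and stood near the filter in the scr tumors, with 29, 30, 12 and 37 reads. Trem2 and Tyrobp, which form a myeloid receptor complex with plexin A1, rose by 1.31 and 1.32. The macrophage markers rose as well, and the part of macrophages in these 2 increases was not tested. Met, which associates with plexin B1, fell by 0.81 (SE 0.28, adjusted p = 0.0372), whereas Mst1r, the related receptor tyrosine kinase, rose by 1.69 (SE 0.36, adjusted p = 0.00306). Mst1r stood near the filter in the scr tumors, with 13, 19, 9 and 19 reads. Flrt2, a ligand of Unc5 receptors, fell by 1.12, Ptprf, a receptor phosphatase, by 1.44, and Rgmb, a neogenin ligand, by 0.51. Adam10, the protease that cleaves ephrins and other guidance proteins, rose by 0.51. The endothelial growth factor Vegfa and its receptor Kdr were not called, with log2 fold changes of 0.0022 and 0.35.

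Markers of other cell types that carry guidance genes moved in part. Of 8 fibroblast markers, 2 were higher and 3 lower. Col14a1 and Lum rose (log2 fold changes 1.52 and 1.01), and Dpt, Pdgfra and Col3a1 fell (-1.50, -0.78 and -0.53). The summed list ran from 12.69 to 12.99 log2 CPM in scr and from 12.04 to 12.72 in KO s1 tumors. Col3a1 was the highest gene in that sum, with means of 12.11 and 11.58 log2 CPM. One of 6 tested pericyte markers was lower, Pdgfrb (-0.77). Of the nerve lists, 1 of 3 tested Schwann cell markers was higher. Of the 7 neuron markers 2 were tested, and Tubb3 rose by 1.96. Snap25 had 21 to 42 reads in the scr tumors and 0 in the KO s1 tumors. It passed the filter only through the scr tumors and so had to differ. Skeletal muscle markers were not called. Their sum ranged from 3.33 to 7.35 log2 CPM in scr and from 4.63 to 8.35 in KO s1 tumors. No adipocyte marker was called. Only 1 of the 6 keratinocyte markers, Krt10, was tested, and it was not called. Krt5, Krt14 and Krt15 had 59, 28 and 28 reads in scr tumor 1 and at most 3 in any other tumor. One of 3 tested neutrophil markers was higher, S100a8, by 0.97 on the log2 scale (adjusted p = 0.00282). The part of these cells in the members' differences was not tested.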

How the data were processed

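RNA from 8 subcutaneous tumors, 4 per group by their sample titles, had been sequenced as paired reads. The authors used Trimmomatic for trimming, HISAT2 for alignment to mm10 and featureCounts for counts per gene, and they deposited log2 CPM made with limma-voom, with an offset of 0.5 reads and no filter on low genes. Per the labels, base calls were converted with bcl2fastq 2.17. Neither the annotation nor the strand option used for counting is given in the sources used here.

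Whole reads were recovered by inverting the deposited log2 values, and they gave the totals per tumor, which limit the precision of low genes to counting error. RPKM used the longest GENCODE M21 transcript, and positions and promoter windows came from RefSeq (GRCm38.p6). Differences were tested with limma 3.58.1 under R 4.3.3 (a linear model per gene and two-sided moderated statistics with a mean trend) on the deposited values of 13262 genes that had 1 CPM or more in 4 tumors at the least, with Benjamini-Hochberg adjustment over all of them. The script was tested on simulated data. Single members were also compared by a two-sided exact permutation test over all 70 splits of the tumors, whose smallest possible p is 0.0286.

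The members and gene lists were chosen with earlier results of these data known. Values per tumor are given for members that were called, changed by at least 2-fold and did not overlap, and for the highest member of each family in RPKM. A 2-fold change was judged on the difference of mean log2 CPM. The alternatives were no filter, a stricter filter (mean of 3 log2 CPM or more), re-centring by sample medians or by chromosome medians, quantile normalization, scaling by read totals, limma-voom weights, a pseudocount of 1 CPM, a replicate block, each tumor left out, and a 2-fold threshold. Count models such as those for raw reads were not run, since the deposited unit is log2. Other measurements of the study were not analysed here.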

Additional observations from a re-analysis of the deposited data

Results flagged for a closer look

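In 6 of the 88 groups of 4 tumors searched (44 members, each group separately), 1 tumor stood far from the other 3, by Dixon's criterion at the 95% level, which sets the gap to the nearest tumor against the range of the group. Chance gives this in about 1 of 20 groups, or 4.4 of 88. Sema6c had 0.27 log2 CPM in scr tumor 2 and 1.16 to 1.35 in the other scr tumors. In scr tumor 1, Efna1 had 3.39 log2 CPM, compared with 2.45 to 2.59 in the others, and Efna2 had 2.97, compared with 1.91 to 2.09. Ntn4 had 2.24 log2 CPM in scr tumor 2 and 3.36 to 3.49 in the others. Among the KO s1 tumors, Epha2 had 7.12 log2 CPM in tumor 3 (7.41 to 7.46 in the others) and Ephb3 had 3.42 in tumor 2 (3.88 to 3.90 in the others). Of these 6 members, Efna2, Ntn4, Epha2 and Ephb3 kept their call when the tumor in question was left out, and Sema6c and Efna1 were not called with all 8 tumors. Without scr tumor 1, Efna1 was called higher (log2 fold change 0.72, limma adjusted p = 0.00505).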

How the results depend on the processing

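The count of members called higher was 9 and ranged from 6 to 10 over the other filters, scalings and weights, and that of members called lower was 18 and ranged from 13 to 19, the lowest under the stricter filter, which tests fewer genes. With a 2-fold threshold the counts were 3 and 11. When each tumor was left out in turn, 9 to 11 members were higher and 17 to 19 lower. Of the 27 called members, 25 kept sign and call under every alternative run on them and none turned sign. The calls of Sema4b (quantile normalization, adjusted p = 0.051; chromosome re-centring, 0.361; 6 of the tumors left out) and of Plxnc1 (chromosome re-centring, log2 fold change 0.60, adjusted p = 0.072) were lost. Chromosome 7, which holds Sema4b, and chromosome 10, which holds Plxnc1, had median log2 fold changes of -0.27 and 0.32. Chromosome 5 had -0.24, and all 4 of its tested members were lower. Re-centring by chromosome moved Sema3a, one of them, from -0.75 to -0.52, and it remained called. Chromosome 1 had -0.34, with 2 tested members higher and 1 lower. The lower one, Sema4c, moved from -0.94 to -0.61 and remained called. Same-numbered tumors came from different mice, and their deviations had correlations from -0.06 to 0.06, so the numbers do not pair them. With the replicate block 9 members were higher and 19 lower.

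Of the 17 members not called, 5 were called under at least 1 alternative (Sema3f, Plxna1, Plxnd1, Efna1 and Efnb3), and 7 with small log2 fold changes turned sign, of which the cause was not tested. Under quantile normalization Sema3g was -0.034, Sema6a -0.083, Sema6b 0.019 and Efnb1 -0.087, and under chromosome re-centring Sema3g was -0.016, Sema6b 0.022 and Plxnb2 -0.035. With single tumors left out, Sema3g ranged from -0.037 to 0.23, Sema6a from -0.16 to 0.19, Sema6b from -0.079 to 0.048, Sema6c from -0.48 to 0.020, Nrp1 from -0.035 to 0.20 and Efnb1 from -0.073 to 0.16. Depth limits the 27 members not tested, which had at most 41 reads in a tumor.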
